A study of Homo sapiens with 4 samples.

Results

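Zeb1 and Snail, each delivered to the same human cell line by the same vector, were compared directly with each other across the transcriptome. The comparison used 2 of the 4 libraries of the series, the Zeb1 and the Snail library, and set the level of every gene symbol in one beside its level in the other. A gene was kept when it reached 1 FPKM (a fragment level corrected for transcript length and library depth) in either library, which kept 11732 of 25317 symbols. MCF10A, the recipient, is a non-tumorigenic human mammary epithelial line. Cells were infected with the lentiviral vector pHIV-ZsGreen, which also makes a green fluorescent protein, carrying Zeb1, Snail or Ovol2, or with the empty vector, and green cells were sorted after 6 days. All 4 groups therefore share the line, the vector, the sort and the time, each group is 1 library of pooled cells, and the promoter of the insert and the species of the inserted coding sequences are not given in the sources used here.

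Zeb1 and Snail are zinc finger repressors that bind the E-box CACCTG and can start an epithelial-mesenchymal transition, in which epithelial cells lose junctions and polarity and gain motility and a fibroblast-like matrix. ZEB1 represses miR-200 and miR-205 genes, whose products in turn target ZEB1 mRNA. OVOL2 and GRHL2 are epithelial factors that oppose the programme.

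The promoters of AP1M2, LAD1 and WFDC2 are shown because these were the named genes with the most CACCTG matches among those with a single promoter window, and each was among the 15 genes lowest in the Zeb1 library relative to the Snail library. The sequences are from RefSeq on GRCh38.p14, 5′ to 3′ on the strand of the gene, and cover the 200 bases before the start. Capitals mark CACCTG or its reverse complement CAGGTG, which do not overlap. AP1M2 lies at chr19:10587313-10587512 on the minus strand, LAD1 at chr1:201399325-201399524 on the minus strand and WFDC2 at chr20:45469553-45469752 on the plus strand.
AP1M2: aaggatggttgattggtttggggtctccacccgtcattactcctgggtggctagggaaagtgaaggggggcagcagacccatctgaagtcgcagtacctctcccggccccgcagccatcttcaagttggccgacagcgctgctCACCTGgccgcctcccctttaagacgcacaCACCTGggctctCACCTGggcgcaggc
LAD1: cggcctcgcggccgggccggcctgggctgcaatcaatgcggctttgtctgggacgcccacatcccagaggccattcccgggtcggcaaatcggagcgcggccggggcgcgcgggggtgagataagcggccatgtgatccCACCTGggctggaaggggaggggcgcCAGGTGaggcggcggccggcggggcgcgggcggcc
WFDC2: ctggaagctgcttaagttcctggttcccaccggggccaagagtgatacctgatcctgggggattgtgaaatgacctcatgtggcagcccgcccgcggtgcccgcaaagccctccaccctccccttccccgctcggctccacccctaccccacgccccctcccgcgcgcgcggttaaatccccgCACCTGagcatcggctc
The AP1M2 stretch holds 3 matches, the LAD1 stretch 2 and the WFDC2 stretch 1. The genes were chosen by matches in windows of 300 bases, from 250 before the start to 50 after it. In that window WFDC2 has 2 matches, the second at position 2 after the start and so not printed. A match on either strand was present in 20.6% of all 35116 RefSeq promoter windows of 300 bases, and 2 or more matches in 3.49%. Promoter windows were matched for 464 of the 754 genes lower in Zeb1 and 183 of the 275 higher, under 80% of either set, so a comparison of motif shares between the sets is void and is not given. A match describes these letters only, and binding was not measured.

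The mature miR-205-5p is shown because its locus was also among the 15 lowest. Capitals mark the seed, bases 2 to 8, and the sequence is from RefSeq.
hsa-miR-205-5p: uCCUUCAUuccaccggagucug
The row of the MIR205 locus read 6.73 FPKM in the Zeb1 library, 36.7 in the Snail library and 26.9 with the empty vector, a log2 ratio of -2.28. Its host gene MIR205HG read 42.1 FPKM with Zeb1, 198 with Snail and 141 with the empty vector, a log2 ratio of -2.21. Both levels were low with Zeb1 and above the empty vector with Snail. The host and the miRNA overlap, so they can share reads, and these libraries do not measure the mature miRNA. The rows of MIR200C (0 with Zeb1 and 0.179 FPKM with Snail) and MIR141 (0.256 and 0.198 FPKM) were under 1 FPKM in both libraries, and no ratio is drawn from them.

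The delivered genes matched the labels. SNAI1 read 0.436 FPKM in the Zeb1 library, 99.7 in the Snail library, 0.152 with the empty vector and 0.725 with Ovol2. ZEB1 read 17.3 FPKM in the Zeb1 library, 0.536 in the Snail library, 0.26 with the empty vector and 0.038 with Ovol2. Each gene was thus high in its own library and low in the other 3. Because reads of an insert from another species would map only in part, the SNAI1 and ZEB1 levels are not compared with each other. From the value of 1 fragment in olfactory receptor genes, depth was about 3.48e+07 fragments for Zeb1 and 3.15e+07 for Snail, and 11310 and 11258 symbols reached 1 FPKM. The noncoding RNAs RMRP and RPPH1 took 22.1% of summed FPKM with Zeb1 and 18.7% with Snail. With 1 library a group, every difference compares these libraries, no replicate spread exists, and no p-value is given.

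Differences were taken as log2 of (Zeb1 FPKM + 1) over (Snail FPKM + 1), which understates the difference of low genes, and a gene was called apart at 2-fold or more on that scale. Of the 11732 genes, 275 were higher in Zeb1 (2.34%) and 754 were lower (6.43%), so that 8.77% were apart and 26.7% of those were higher. Genes at 5 FPKM or more in both libraries had a median of -0.25, and all genes kept a median of -0.19. Setting the first median to 0 turned the balance, to 514 higher and 348 lower (59.6% higher). The balance also turned on upper-quartile scaling (429 and 416, 50.8% higher), after centring by transcript length (433 and 387, 52.8%) and after rescaling without small RNA genes (487 and 260, 65.2%). Which direction holds more genes is therefore set by the scaling, and list medians are read against -0.25. At 4-fold or more, 59 genes were higher and 32 lower. Under each of 10 settings that tested them, 104 genes were higher and 180 lower.

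**Figure D1:**
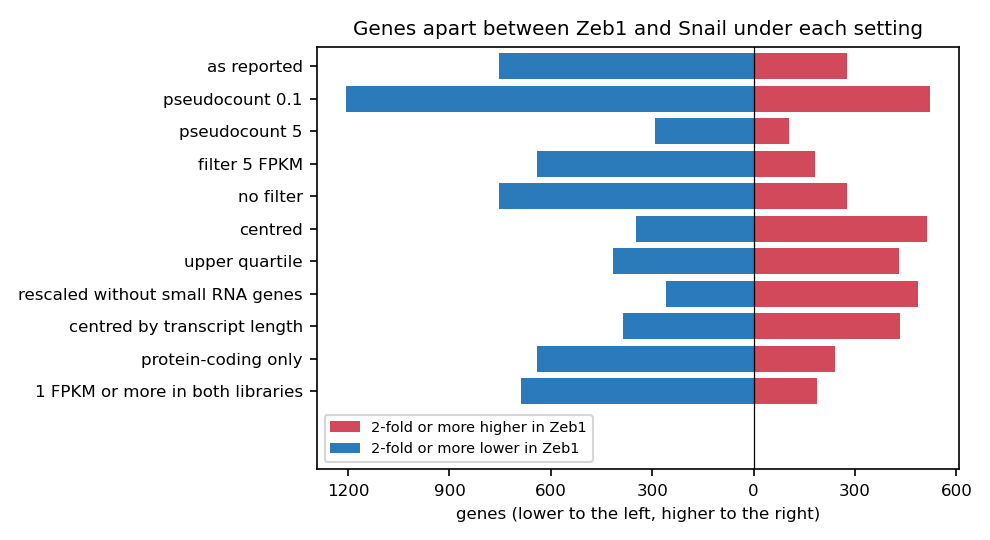
Numbers of genes (x) 2-fold or more lower (left) and higher (right) in the Zeb1 library than in the Snail library, 1 bar pair for each setting. The lower genes outnumber the higher ones as reported (754 and 275) and not after centring (348 and 514).

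**Figure D2:**
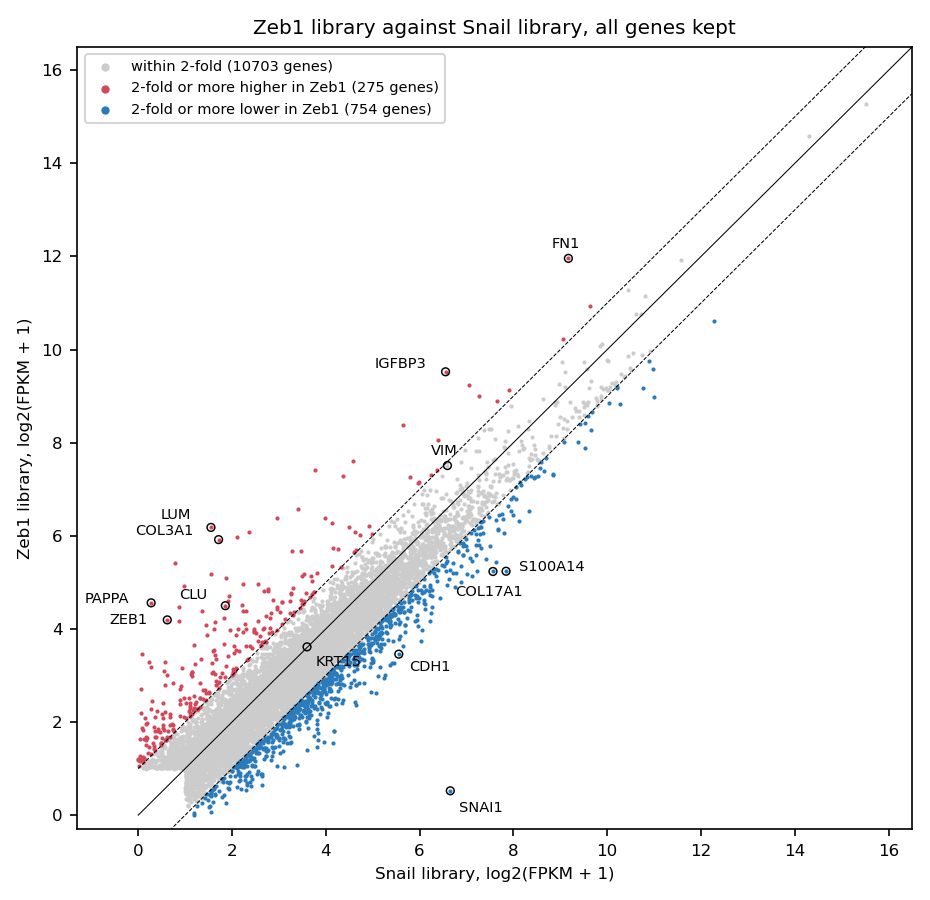
Levels in the Snail library (x) against the Zeb1 library (y), both as log2(FPKM + 1), for the 11732 genes kept, with dashed lines at 2-fold and named genes circled. The 275 red genes lie above the band and the 754 blue genes below it, with LUM (4.63) and SNAI1 (-6.13) at the largest log2 ratios.

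Secreted matrix and growth factor-binding genes were among the highest ratios. LUM, which encodes the collagen-binding proteoglycan lumican, read 71.5 FPKM with Zeb1, 1.93 with Snail and 0.763 with the empty vector (log2 ratio 4.63). COL3A1, the chain of type III collagen, read 59.5, 2.28 and 0.0699 FPKM in the same order (4.20), and was over 2-fold above the empty vector with Snail as well. VCAN, the large proteoglycan versican, read 21 FPKM with Zeb1, 0.828 with Snail and 0.235 with the empty vector (3.59). Lumican and versican thus stayed under 2 FPKM with Snail. DPT, the matrix protein dermatopontin, read 9.98 FPKM with Zeb1 and 0.0641 with Snail, about 4 fragments, and was listed at 0 with the empty vector. WISP1, a matricellular protein of the CCN family, read 41.4, 0.723 and 0.851 FPKM (4.62), so its Snail level was under that of the empty vector.

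Among 23 matrix glycoproteins and proteoglycans kept, 11 were 2-fold or more higher in Zeb1 (47.8%, beside 2.34% of all genes) and 2 were lower (8.70%, beside 6.43%), with a median of 0.86. Of the 20 at 1 FPKM or more in both libraries, 9 were higher. Fibronectin, FN1, was the most abundant of the 11, at 3982 FPKM with Zeb1, 576 with Snail and 92.7 with the empty vector (2.79). FBN1, the microfibril protein fibrillin-1, read 50.3, 8.67 and 0.377 FPKM (2.41). The proteoglycan decorin, DCN, read 604, 131 and 11.1 FPKM (2.19). For these 3 genes the Snail level lay between the other libraries. SPARC, a collagen-binding matrix protein, read 3.55 FPKM with Zeb1 but 0.0411 with Snail and 0.0202 with the empty vector (2.13). The 2 lower members were SDC1, the epithelial proteoglycan syndecan-1 (31.3, 117 and 156 FPKM, -1.87), and MFAP5, a microfibril protein whose level was raised with Snail alone among these libraries (1.79, 6.96 and 1.85 FPKM, -1.51).

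Of 18 collagens and collagen-modifying enzymes, 4 were higher (22.2%, beside 2.34% of all genes) and 1 was lower (5.56%, beside 6.43%). Their median was 0.51, and 7 were higher and 1 lower after centring. Of the 17 at 1 FPKM or more in both libraries, 3 were higher. COL8A1, a short-chain collagen, read 94.1 FPKM with Zeb1, 9.64 with Snail and 6.46 with the empty vector (3.16). COL1A1, the main chain of type I collagen, read 25, 2.83 and 3.49 FPKM (2.76), and its partner chain COL1A2 read 1.4 FPKM with Zeb1 and 0.0224 with Snail, about 4 fragments. COL16A1 was the lower member, at 2.06, 6.33 and 8.89 FPKM (-1.26). LOX, the collagen-crosslinking lysyl oxidase, was level between them at 101 FPKM with Zeb1 and 103 with Snail, above 33.2 with the empty vector (-0.03).

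PAPPA is the protease that frees insulin-like growth factor (IGF) by cutting IGFBP4, and STC1 and STC2 are its inhibitors. PAPPA read 22.6 FPKM with Zeb1, 0.21 with Snail (about 72 fragments) and 0.0235 with the empty vector (4.29). Its substrate IGFBP4 read 29.3, 0.962 and 0.592 FPKM (3.95), and STC2 read 19.8, 1.58 and 1.09 FPKM (3.01). IGFBP3, the main carrier of IGF, was far more abundant, at 735 FPKM with Zeb1, 92.9 with Snail and 18.2 with the empty vector (2.97). Protease, substrate and inhibitor were thus all high with Zeb1, and IGFBP3 alone of these 4 was also 2-fold above the empty vector with Snail on the log2(FPKM + 1) scale. The remaining higher members of the IGF axis were IRS2, an adaptor of the insulin and IGF receptors (17.7 and 5.98 FPKM with Zeb1 and Snail, 1.42), and STC1 (1.81 and 0.261 FPKM, 1.15). IGFBP6 was lower, at 21.6 and 44.9 FPKM (-1.02), but not after centring (-0.77). In all, 6 of 10 kept members were higher (60%, beside 2.34% of all genes) and 1 was lower (10%, beside 6.43%), with a median of 1.29. PAPPA, IGFBP4 and STC1 were kept through the Zeb1 library only. Of the 7 members at 1 FPKM or more in both libraries, 3 were higher. The list median ran from 0.50 to 2.20 across settings.

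Of 16 metalloproteinases and inhibitors, 6 were higher (37.5%) and 2 lower (12.5%), beside 2.34% and 6.43% of all genes, with a median of 0.73. Of the 11 at 1 FPKM or more in both libraries, 3 were higher. Besides PAPPA and STC2, ADAMTS1, which cuts versican, read 61.6 FPKM with Zeb1, 3.32 with Snail and 0.885 with the empty vector (3.86). The gelatinase MMP2 read 19.9, 3.89 and 3.06 FPKM (2.09). MMP7 (matrilysin) read 6.17, 0.665 and 1.76 FPKM (2.11), on opposite sides of the empty vector, and ADAMTS5 read 5.51 FPKM with Zeb1 and 0.0491 with Snail (2.63). The lower members were the inhibitor TIMP3 (24.4, 62.7 and 52.2 FPKM, -1.32) and MMP28 (9.06, 19.9 and 33.8 FPKM, -1.05), the latter not after centring (-0.80). Among 10 plasminogen activators and serpins, 5 were higher (50%) and 1 was lower (10%). Both activators were included: PLAT read 23.4 FPKM with Zeb1, 2.78 with Snail and 2.59 with the empty vector (2.69), and PLAU read 34.3, 11.9 and 33.8 (1.46), so that for PLAU it was Snail that left the empty vector. The protease inhibitor SERPINE2 read 33.1, 2.66 and 1.02 FPKM (3.22). SERPINB5, or maspin, was the lower member, at 98.1, 237 and 250 FPKM (-1.26).

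**Figure D3:**
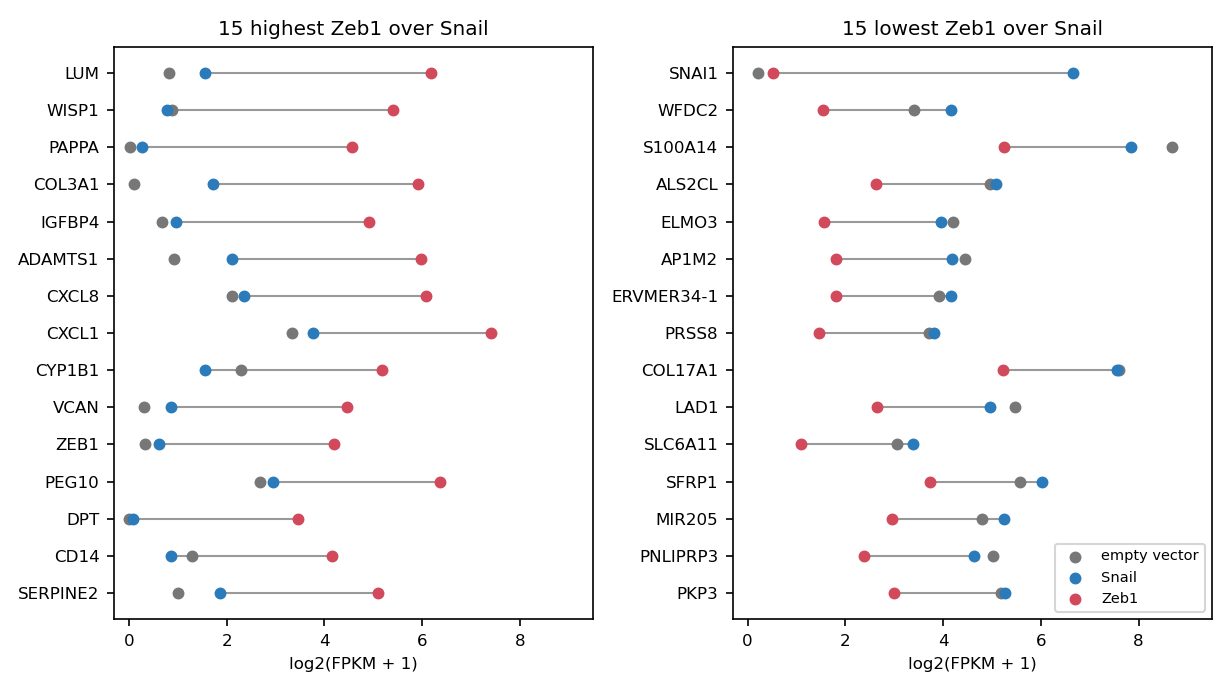
The 15 highest and 15 lowest log2 ratios of Zeb1 over Snail where at least 1 of the libraries reached 5 FPKM, with log2(FPKM + 1) on x and 1 point for each of the Zeb1, Snail and empty vector libraries. On this scale the Snail point on the left lies near the empty vector for genes such as PAPPA (0.21 and 0.0235 FPKM). Its Snail level was nonetheless the higher of these, and the added 1 FPKM draws such low values together. On the right the points lie near each other for genes such as COL17A1 (188 and 192 FPKM).

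Ligands, receptors and targets of other pathways were counted next. Of 22 transforming growth factor beta (TGF-beta) and activin genes, 1 was lower (4.55%, beside 6.43% of all genes), with a median of 0.22. The higher ones were 5 (22.7%, beside 2.34%). They were the activin subunit INHBA (6.9 FPKM with Zeb1, 1.2 with Snail, 0.608 with the empty vector, 1.84), the decoy receptor BAMBI (1.51), the ligands TGFB2 (1.21) and TGFB1 (1.01), and the target CTGF (142, 62.5 and 33.1 FPKM, 1.17). The receptor TGFBR1 was lower, at 17.5, 39.8 and 22.4 FPKM (-1.14), but not after centring (-0.89), which left 6 members higher and 0 lower. Of 16 WNT genes, the non-canonical ligand WNT5A was higher, at 82.4 FPKM with Zeb1, 14.9 with Snail and 2.01 with the empty vector (2.39). The secreted antagonist SFRP1 was lower (12.3, 64 and 46.3 FPKM, -2.29), as was the receptor FZD8 (2.13, 7.69 and 3.92, -1.47). The WNT shares, 6.25% higher and 12.5% lower, stand beside 2.34% and 6.43% of all genes. Of 11 bone morphogenetic protein (BMP) and ID genes, ID1, an inhibitor of basic helix-loop-helix factors, was lower, at 22.3, 68.5 and 84.3 FPKM (-1.57), and none was higher. The 9.09% lower stands beside 6.43% of all genes, and after centring the protease BMP1 was higher (1.14). The YAP and TAZ targets held 1 higher (CTGF) and 1 lower (FJX1, -1.42) of 15, or 6.67% each way beside 2.34% and 6.43% of all genes, and their median of -0.05 changed sign with the setting, as did those of the WNT and BMP lists.

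Of 12 inflammatory cytokines and chemokines, 5 were higher (41.7%) and 3 lower (25%), beside 2.34% and 6.43% of all genes, with a median of 0.19. The neutrophil-attracting chemokine CXCL8 read 66.8 FPKM with Zeb1, 4.1 with Snail and 3.29 with the empty vector (3.73). CXCL1 read 168, 12.6 and 9.05 FPKM (3.63) and CXCL3 read 15.9, 1.71 and 1.01 (2.64), each near the empty vector with Snail. CXCL2 (1.48) and the macrophage growth factor CSF1 (1.46) were the other two. CXCL1, CXCL2 and CXCL3 are close paralogs, so reads could be split among them. The 3 lower members were these: the interleukin IL1A read 3.83, 14.1 and 12.1 FPKM (-1.65), the interleukin IL18 read 49.4, 112 and 114 (-1.17), and the chemokine CCL20 read 1.79, 4.85 and 2.53 (-1.07). After centring, 1 of these 3 remained 2-fold lower. PTGS2, the inducible prostaglandin synthase, was on opposite sides of the empty vector, at 2.42 FPKM with Zeb1, 13.2 with Snail and 6.41 with the empty vector (-2.05).

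Of 15 mesenchymal cytoskeleton and adhesion genes, 3 were higher (20%, beside 2.34% of all genes), none was lower, and the median was 0.14 (6 higher after centring). ACTA2, smooth muscle actin, read 20 FPKM with Zeb1, 3.69 with Snail and 2.27 with the empty vector (2.16). CDH2, N-cadherin, read 11.3, 3.11 and 1.23 FPKM (1.58), and the myosin light chain MYL9 read 51.6, 18.1 and 6.85 (1.46). VIM, the intermediate filament vimentin, read 181 FPKM with Zeb1 and 95.6 with Snail, against 12.6 with the empty vector (0.92), under 2-fold apart here and over it after centring. The fibroblast-associated S100A4 read 331, 49.4 and 34 FPKM (2.72). It was the 1 higher member of 13 S100 genes, against 2 lower, S100A14 (36.8, 229 and 409 FPKM, -2.60) and S100A2 (508, 2051 and 3254 FPKM, -2.01). The S100 shares, 7.69% higher and 15.4% lower, stand beside 2.34% and 6.43% of all genes.

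Genes of epithelial structure followed, list by list. Among 23 polarity, trafficking and splicing genes, 16 were 2-fold or more lower (69.6%, beside 6.43% of all genes) and none was higher. Their median was -1.40, and 13 were lower after centring. Of the 20 at 1 FPKM or more in both libraries, 14 were lower. AP1M2, the epithelial sorting adaptor subunit whose promoter is printed, read 2.49 FPKM with Zeb1, 17.2 with Snail and 20.7 with the empty vector (-2.38). The channel-activating protease PRSS8 read 1.75, 13 and 12.1 FPKM (-2.35), and the epithelial splicing factor ESRP1 read 3.51, 13.8 and 22.4 (-1.71). RAB25, an epithelial trafficking GTPase, was lower in both libraries in steps, at 3.47, 11.5 and 28.8 FPKM (-1.48). The membrane protease ST14 was the exception at the other end, with 7.68 FPKM with Zeb1 and 8.65 with Snail, both far under 39.7 with the empty vector (-0.15).

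Of 19 adherens and tight junction genes, 5 were lower (26.3%, beside 6.43% of all genes) and none was higher, with a median of -0.43. After centring, however, 4 were lower, PVRL1 no longer being so, and 2 were higher. CDH1, E-cadherin, read 9.99 FPKM with Zeb1, 46.0 with Snail and 60.4 with the empty vector (-2.10). MARVELD3, F11R and PVRL1, tight junction and nectin proteins, were also among the lower members, at -1.66, -1.34 and -1.05. EPCAM, an epithelial adhesion molecule, was low in both, at 1.08 FPKM with Zeb1 and 0.683 with Snail against 6.61 with the empty vector (0.31). The claudin CLDN7 was lower with Snail than with Zeb1, at 7.24 and 13.6 FPKM, with 21 in the empty vector (0.83). E-cadherin thus separated the libraries while EPCAM did not.

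Of 20 desmosome and hemidesmosome genes, 10 were lower (50%, beside 6.43% of all genes) and none was higher, with a median of -1.01 (9 lower after centring). COL17A1, a collagen of the hemidesmosome, read 36.6 FPKM with Zeb1, 188 with Snail and 192 with the empty vector (-2.33). PKP3, a desmosomal plaque protein, read 7, 37.4 and 35.4 FPKM (-2.26). The laminin-332 chain LAMA3 read 34.3, 137 and 98.5 FPKM (-1.97), and LAMB3 stood at -1.26. For these genes Snail left the level near or above that of the empty vector. The integrin chains that pair in hemidesmosomes were low with Zeb1 too: ITGB4 read 39.8, 116 and 134 FPKM (-1.53) and ITGA6 read 80.6, 217 and 249 (-1.42). Among 13 integrins these and ITGB6 (-1.31) were the 3 lower ones (23.1%, beside 6.43% of all genes). The fibronectin receptor chain ITGA5 (139, 61.8 and 32.5 FPKM, 1.16) and the collagen receptor ITGA11 (1.18) were higher (15.4%, beside 2.34%). ITGA11 read only 1.33 FPKM with Zeb1 and 0.0276 with Snail, about 6 fragments, and was not called in every setting. The median over the integrins was -0.02 and changed sign with the setting.

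Of 19 keratins and basal markers, 13 were lower (68.4%, beside 6.43% of all genes) and none was higher, with a median of -1.53 (12 lower after centring). LAD1, an anchoring filament protein whose promoter is printed, read 5.25 FPKM with Zeb1, 30.2 with Snail and 43.1 with the empty vector (-2.32). The basal keratin KRT14 read 70 FPKM with Zeb1, 204 with Snail and 195 with the empty vector (-1.53), and KRT17 stood at -1.66. TP63, the basal epithelial factor p63, read 4.06, 15.7 and 23.9 FPKM (-1.72). KRT15 departed from the list, at 11.2 FPKM with Zeb1 and 11.1 with Snail against 125 with the empty vector (0.02). Close keratin paralogs such as KRT6A and KRT6B, or KRT14, KRT16 and KRT17, can share reads, and their levels are uncertain to that extent.

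Among 15 transcription factors of the transition and its reverse, ZEB1 was the 1 higher (6.67%, beside 2.34% of all genes) and 5 were lower (33.3%, beside 6.43%). ZEB1 and SNAI1 are the delivered genes, so their calls were set by the design and these shares are not read as a result. ZEB1, SNAI1 and OVOL2 were kept through 1 library only. Of the 12 members at 1 FPKM or more in both libraries, none was higher and 3 were lower. SNAI1 aside, the lower ones were the epithelial factors GRHL2 (2.26 FPKM with Zeb1, 12.4 with Snail, 14.5 with the empty vector, -2.04), OVOL2 (0.563, 5.26 and 6.32 FPKM, -2.0), TP63 and KLF4 (6.51, 14.9 and 14.9 FPKM, -1.08). GRHL2, OVOL2 and KLF4 stayed close to the empty vector with Snail. ZEB2 read 4.39 FPKM with Zeb1 and 1.9 with Snail (0.89), TWIST1 read 14 and 7.72 (0.78), and SNAI2 read 59.1 and 47 (0.32). None of these 3 was 2-fold apart as reported, but after centring ZEB2 (1.14) and TWIST1 (1.03) were higher and KLF4 (-0.83) was no longer lower, which gave 3 higher and 4 lower. The ZEB1 level with Snail, 0.536 FPKM, was above the 0.26 FPKM of the empty vector, and both were under 1 FPKM.

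**Figure D4:**
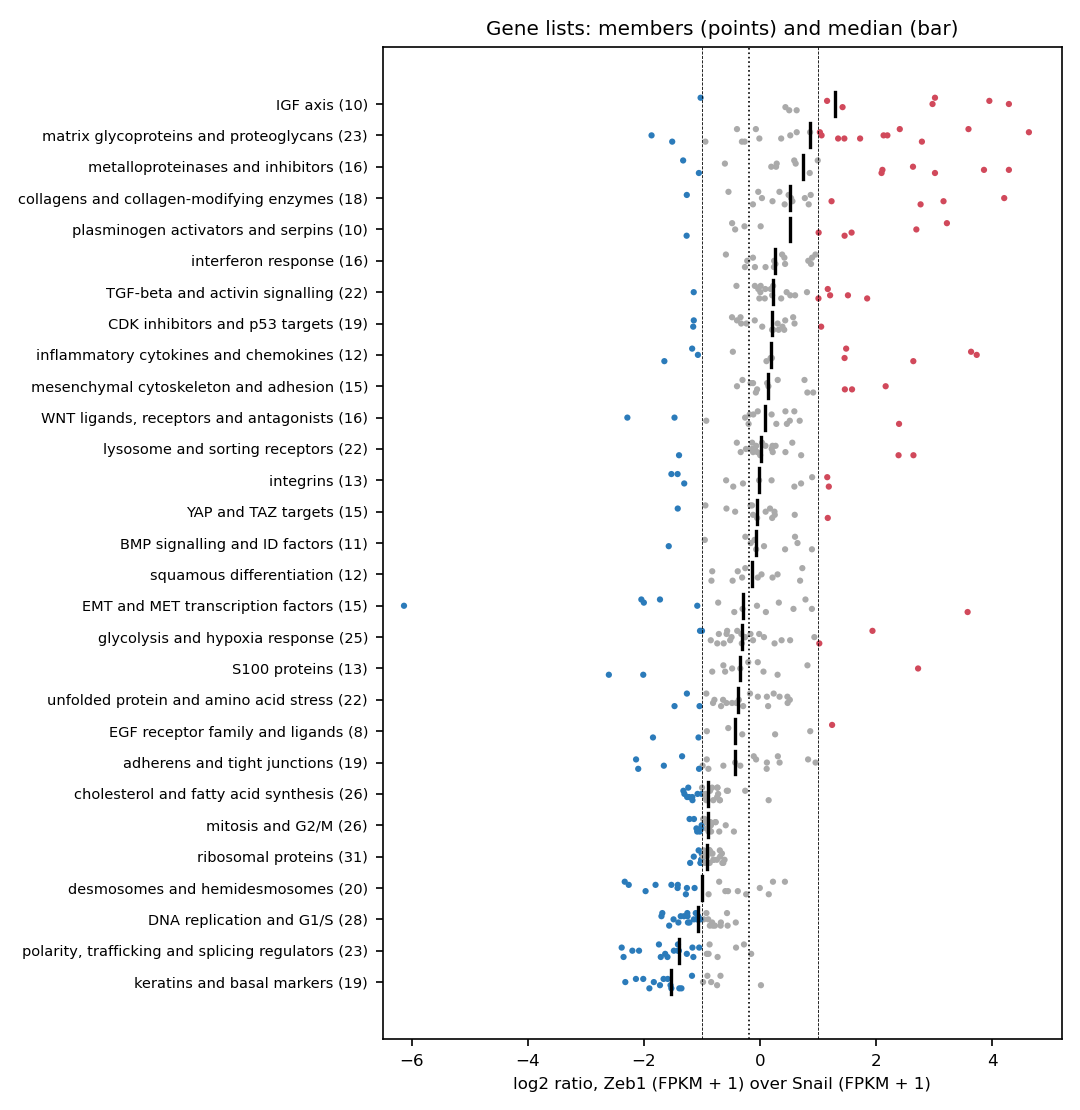
Log2 ratios of Zeb1 over Snail (x) for the kept members of each gene list, 1 point a gene, with a bar at the list median, dashed lines at 2-fold and a dotted line at the median of all genes kept (-0.19). The IGF axis (median 1.29) and matrix glycoproteins (0.86) lie to the right, and the keratins and basal markers (-1.53) and polarity genes (-1.40) to the left.

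The counts for cell cycle, ribosomal and lipid synthesis genes depended on scaling. All 28 DNA replication genes kept had a negative ratio, with a median of -1.08 that ran from -1.45 to -0.65 across settings. Of these, 16 were 2-fold lower (57.1%, beside 6.43% of all genes), but 8 after centring. CCND1, cyclin D1, read 6.17 FPKM with Zeb1, 22.3 with Snail and 21.2 with the empty vector (-1.70). The salvage enzyme TK1 read 4.69, 17.3 and 17.3 FPKM (-1.68), and the helicase subunit MCM2 read 3.22, 11.5 and 12.1 (-1.57). Snail was thus level with the empty vector for these. All 26 mitosis genes were negative with a median of -0.90, and 7 were 2-fold lower (26.9%), but none after centring. Their highest ratio was -0.45, under the -0.25 used for centring, so all stayed negative, and their median ran from -0.99 to -0.59 across settings. PTTG1 (securin) was at -1.21 and BIRC5 (survivin) at -1.14. All 31 ribosomal protein genes were negative with a median of -0.92, and 8 were 2-fold lower (25.8%), but none after centring. The highest of them was at -0.61, so these too stayed negative after centring, and their median ran from -0.92 to -0.57 across settings. RPS3 read 152 FPKM with Zeb1, 352 with Snail and 359 with the empty vector (-1.20), and ribosomal protein genes have many pseudogenes that can share reads. Of 26 cholesterol and fatty acid synthesis genes, 9 were lower (34.6%, beside 6.43% of all genes), 3 after centring, with a median of -0.89. SQLE, SCD and FASN led them at -1.32, -1.3 and -1.26.

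Genes that were 2-fold apart were then placed against the empty vector, whose library is shared by both ratios and so cannot serve as independent support. Of the genes kept, 4.59% were 2-fold higher and 8.18% lower with Zeb1 than with the empty vector, against 0.997% and 1.18% with Snail. Of the 275 genes higher with Zeb1, 199 (72.4%) were above the empty vector with Zeb1 and within 2-fold of it with Snail. Another 28 (10.2%) were above it in both libraries but further with Zeb1. These 28 included COL3A1, DCN, FBN1, FN1, IGFBP3, POSTN, WNT5A, ADAMTS1 and MYL9. POSTN, the matrix protein periostin, read 510 FPKM with Zeb1, 154 with Snail and 14.9 with the empty vector (1.72). Of the 754 genes lower with Zeb1, 552 (73.2%) were below the empty vector with Zeb1 and within 2-fold of it with Snail, and 16 (2.12%) were below it in both, RAB25 among them.

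**Figure D5:**
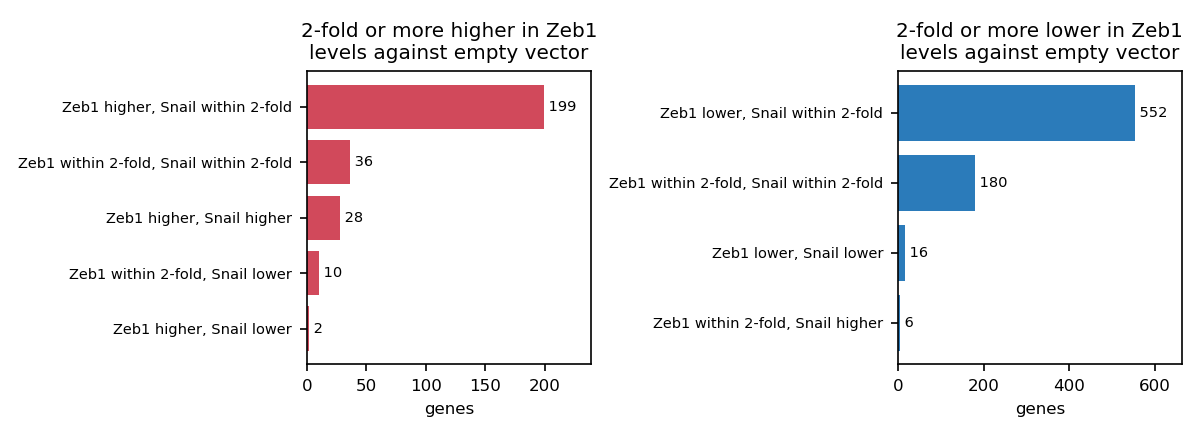
Numbers of genes (x) among the 275 higher and 754 lower with Zeb1, divided by where their Zeb1 and Snail levels lay against the empty vector at 2-fold. In the longest bars, 199 and 552 genes, Snail is within 2-fold of the empty vector.

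In a few genes it was Snail that left the empty vector. Besides SNAI1, 5 genes were higher with Snail and within 2-fold of the empty vector with Zeb1. They were ALPP, SLC16A14, NSG1, MFAP5 and the MIR503 locus, of which ALPP, placental alkaline phosphatase with close paralogs, read 8.59 FPKM with Zeb1, 42.9 with Snail and 16.8 with the empty vector (-2.19). Another 10 genes were lower with Snail while Zeb1 stayed within 2-fold. They included PLAU, the glucose transporter SLC2A1 (24.7, 11.7 and 32.9 FPKM, 1.02), BBOX1, PMAIP1, NCOA7 and ABCC3.

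On the log2(FPKM + 1) scale, CLU and SORT1 alone were 2-fold above the empty vector with Zeb1 and 2-fold below it with Snail. CLU, the secreted chaperone clusterin, read 21.6 FPKM with Zeb1, 2.62 with Snail and 9.85 with the empty vector (2.64). SORT1, the sorting receptor sortilin, read 15.1, 2.08 and 5.86 FPKM (2.39). Other genes on opposite sides were CYP1B1, a cytochrome P450 (35.1, 1.95 and 3.91 FPKM, 3.61), and NPNT, the integrin ligand nephronectin (17.8, 2.57 and 5.37, 2.40). On that scale both were 2-fold above the empty vector with Zeb1 but less than 2-fold below it with Snail. Without the added 1 FPKM, both were 2-fold or more below it with Snail, as was MMP7. In the reverse sense, WFDC2, an epithelial secreted protein whose promoter is printed, read 1.92 FPKM with Zeb1, 16.9 with Snail and 9.56 with the empty vector (-2.62). CLIC3 (11.4, 34.4 and 19.7 FPKM, -1.51) and FLRT3 (20, 54.2 and 33.3 FPKM, -1.39) lay the same way as WFDC2, and none of these 3 was 2-fold from the empty vector with Snail.

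By contrast, 5 genes lay 4-fold or more from the empty vector on the same side in both libraries and nearly level with each other (log2 ratios from -0.19 to 0.07), all of them below it. Besides KRT15 and ST14 they were TSPAN1, a tetraspanin (4.32 FPKM with Zeb1, 4.09 with Snail, 34.4 with the empty vector), AQP3, a water and glycerol channel (6.58, 7.33 and 39.3), and TREM2, a receptor best known from myeloid cells (1.64, 2.01 and 17.2).

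Markers of other cell types were examined because the libraries are bulk RNA, in which fewer cells of a type and less RNA per cell cannot be told apart. Of the epithelial markers, KRT5 read 771 FPKM with Zeb1 and 2022 with Snail, and KRT14, KRT18, KRT8 and CDH1 were also present in both. EPCAM, however, read 1.08 FPKM with Zeb1 and 0.683 with Snail, against 6.61 with the empty vector. Of 14 immune markers 3 were kept, and the list summed to 22.4 FPKM with Zeb1 and 4.90 with Snail. CD14, a lipopolysaccharide co-receptor, made most of the Zeb1 sum but not of the Snail sum. It read 17 FPKM with Zeb1, 0.828 with Snail and 1.46 with the empty vector (3.30). The other kept markers were CD68 (4.86 FPKM with Zeb1 and 2.24 with Snail) and CSF1R (0.369 and 1.51 FPKM). CD3D, CD3E and HBB were listed at 0 in both and PTPRC, the leukocyte marker, read 0.0177 and 0.0102 FPKM. None of 10 endothelial markers was kept, and they summed to 0.616 and 0.401 FPKM. Of 13 neural and muscle markers 2 were kept, MAP2 at 19.7 and 10.5 FPKM and TUBB3 at 16.7 and 16.2.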

How the data were processed

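RNA of sorted MCF10A cells was sequenced, 1 library a group (empty vector, Zeb1, Snail, Ovol2), from TruSeq RNA libraries per the labels' protocols. Per the submitters' processing notes, hg19 was the genome build and TopHat, Cufflinks and Cuffdiff were used, with versions, annotation and strand not given in the sources used here. Values that the authors deposited were read as FPKM, a unit taken from the tools and values since no header names it. The authors' comparison columns were not used. The Zeb1 and Snail columns come from separate tables, whose empty vector columns differed in 0 rows. Using Python 3.11.15 and pandas 2.3.3, 43 rows repeating a symbol were summed, 1 was added before log2, and genes that reached 1 FPKM with Zeb1 or Snail were kept and called at 2-fold. The calculation was tested on simulated data. Fragments behind low values are estimates from FPKM, depth and transcript length, and they limit precision through counting error only.

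Named genes were the delivered and marker genes, the 15 highest and 15 lowest at 5 FPKM or more, up to 5 of each list of genes, genes alike or opposed against the empty vector, and the remaining members behind a count of 5 or fewer. A few further members (SPARC, CLDN7, KRT14, KRT17, POSTN, LAMB3) were chosen after their values were seen. Other genes outside these rules were also given, among them LOX, RAB25, ZEB2, TWIST1, SNAI2, CDKN1A, BBOX1, PMAIP1, NCOA7 and ABCC3. The members and the 32 gene lists were chosen with earlier results of these data known. Alternatives changed the pseudocount, filter, fold, scaling and gene type. Some list members are not reported here. No replicates exist, so no test was run.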

Additional observations from a re-analysis of the deposited data

How the results depend on the processing

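The counts of 275 genes higher and 754 lower with Zeb1 depended on scaling. They were 514 and 348 after centring, 433 and 387 after centring by transcript length, 429 and 416 on upper-quartile scaling, and 487 and 260 after rescaling without small RNA genes; each of these shifts all ratios or ratios of like length upward. They were 521 and 1205 with a pseudocount of 0.1, 104 and 292 with 5, 749 and 2431 at 1.5-fold, and 59 and 32 at 4-fold. A filter of 5 FPKM, which tests fewer genes, left 181 and 642. Without a filter they stayed at 275 and 754, in protein-coding genes they were 241 and 640, and with 1 FPKM required in both libraries, a choice made after seeing the data, 186 and 689. Of 167 named genes, 126 were called and kept their sign in each of the 10 settings that tested them, and 85 were called in each of those. Some named genes, such as PAPPA and MIR205, were not tested in every setting. Medians ran from -0.28 in the shortest of 10 bins of transcript length to -0.07 in the longest; the cause was not tested. No paired analysis was possible because each group is 1 library. The Snail level of 89 of the 275 higher genes and the Zeb1 level of 65 of the 754 lower genes were under 1 FPKM, where few fragments limit the ratio.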

Other observations

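Small nucleolar RNA genes, which guide the modification of ribosomal RNA, numbered 179 among the genes kept, of which 40 were 2-fold lower with Zeb1 (22.3%) and 4 were higher, with a median log2 ratio of -0.72. Of 10391 protein-coding genes, 640 were lower (6.16%) and 241 higher. After centring, 23 small nucleolar RNA genes were lower and 5 higher. They are shorter than the fragments usually sequenced, so their FPKM values are uncertain.

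None of 16 interferon-response genes was 2-fold apart, with a median of 0.25, and 4 were higher after centring; STAT2, a transducer of interferon signalling, read 39.5 FPKM with Zeb1, 21 with Snail and 14.2 with the empty vector (0.88). Of 12 squamous differentiation genes kept, none was apart, and the median of -0.15 became 0.10 after centring. Of 25 glycolysis and hypoxia genes, 2 were higher, SLC2A1 and the enolase ENO2 (3.24 FPKM with Zeb1 and 0.107 with Snail, 1.94), and 2 were lower, PFKP (35.9 and 72.8 FPKM, -1.0) and ADM (18.4 and 38.6 FPKM, -1.03). The shares of that list, 8% each way, stand beside 2.34% higher and 6.43% lower of all genes. After centring neither PFKP nor ADM was lower (-0.75 and -0.78). ENO2 was kept through the Zeb1 library only, and with 1 FPKM required in both libraries 1 member was higher. Neither SLC2A1 nor ENO2 was called in every setting. Of 22 genes of the unfolded protein and amino acid stress list, 3 were lower (13.6%, beside 6.43% of all genes). They were the transporter chains SLC7A5 (54.7 FPKM with Zeb1, 154 with Snail, -1.47) and SLC3A2 (64.3 and 155 FPKM, -1.26), which form 1 amino acid transporter, and PHGDH of serine synthesis (1.04 and 3.2 FPKM, -1.04), the last not after centring (-0.79). Of 19 CDK inhibitor and p53 target genes, RRM2B was higher (1.05) and GADD45A (-1.15) and TP53I3 (-1.14) were lower, though neither was after centring (-0.90 and -0.89), while CDKN1A was level at 87.6 and 74.7 FPKM. The shares of that list, 5.26% higher and 10.5% lower, stand beside 2.34% and 6.43% of all genes. Among 8 genes of the EGF receptor family and its ligands, EREG was higher (1.24), and EPGN (2.88 and 12.9 FPKM, -1.84) and EGFR (22.5 and 47.9 FPKM, -1.06) were lower, EGFR not after centring (-0.81). These make 12.5% higher and 25% lower, beside 2.34% and 6.43% of all genes. Of 22 genes of the lysosome and sorting list, which includes the secreted CLU, CLU and SORT1 were higher and the protease CTSH was lower (-1.40). Thus 9.09% were higher and 4.55% lower, beside 2.34% and 6.43% of all genes. The list was chosen with earlier results of these data known. Its higher share rests on CLU and SORT1 alone and is not read as a result.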
